A study of Mus musculus with 3 samples.

Results

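Expression of 9 transcription factor genes of myeloid cells was followed across immune cell classes of mouse glioblastoma (GBM), out of 31053 genes counted. They are Sall1 and Mef2c, factors of microglial identity, Spi1 (encoding PU.1) and Irf8, which set the myeloid lineage, the C/EBP genes Cebpa and Cebpb, and Klf4, Bhlhe40 and Zeb2. Members were taken by gene symbol, and all 9 had 1 row each in the count tables and passed the filter on low counts. The recipients were female wild-type C57BL/6 mice, bought at 6 to 8 weeks of age, carrying an intracranial graft of the brain tumor-initiating cell line BT0309, which came from NPcis (Nf1+/-;Trp53+/-) mice and expressed firefly luciferase and GFP. All tumors therefore derive from 1 cell line. Niacin (vitamin B3) was given by intraperitoneal injection at 100 mg/kg each day from day 7, vehicle mice received saline, and tissue near the injection site was taken at 4 weeks. The data hold 1 vehicle library and 2 niacin libraries. Each is a pool, described in the labels as 4 brain tissues and also as 5 mice for the vehicle library and 10 mice for both niacin libraries. Cells passed a Percoll gradient and a sort for live cells.

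Cells were assigned to classes by the unique molecular identifiers (UMIs, counted RNA molecules) of lineage markers, none of which is among the 9 genes. A cell needed at least 3 marker UMIs, of which at least 75% belonged to 1 lineage, so a class name stands for cells that resemble that type. The vehicle library held 341 microglia, 191 monocytes or macrophages and 52 neutrophils. The first niacin library held 612, 34 and 31, and the second held 875, 41 and 26. The 8 microglia markers summed to 10807 to 13080 CPM (UMIs scaled to a total of 1e+06 in each class and library) in microglia and to 32.2 to 135 CPM in the monocyte/macrophage class, where 0 to 4 of them were at 0. The libraries differed in composition within the monocyte/macrophage class. Nonclassical (Ear2, Treml4, Ace and Eno3) monocytes made up 8.38% of it in the vehicle library and 91.2% and 82.9% in the niacin libraries, while classical (Ly6c2, Chil3, Vcan and Mgst1) monocytes made up 41.4%, 5.88% and 9.76%. Values for nonclassical monocytes alone (16, 31 and 34 cells) are therefore given beside those of the joined class. In addition, 924 of 5571 distinct cell barcodes occurred in more than 1 library, and 892 were common to both niacin libraries. The vehicle library shared 478 with the first niacin library and 458 with the second, and 452 were in all 3. Over all barcodes, median UMIs of shared and other barcodes were 873 and 1684 in the vehicle library. They were 6272 and 2461 in the first niacin library and 754.5 and 3391 in the second. Every shared barcode was left out, which removed 2050 of 5528 cells and left 3478. Values with them kept are given where they change a call. The composition above depends on this rule. With all barcodes kept, the monocyte/macrophage class held 327, 202 and 197 cells (vehicle, niacin 1, niacin 2). Of these, 22, 62 and 56 were nonclassical and 168, 65 and 73 classical. With only the deepest copy of a shared barcode kept, the class held 309, 72 and 72 cells. Of these, 18, 54 and 44 were nonclassical and 161, 12 and 17 classical.

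Microglia are the resident macrophages of the brain and arise from yolk sac progenitors, whereas tumor monocytes and macrophages come from the blood. PU.1 opens macrophage enhancers and IRF8 binds beside it, and the 2 C/EBP proteins act with them. Signals of the brain, above all TGF-β, hold a further layer of factors in place, of which SALL1 is the one most tied to microglia.

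The start regions of 4 of the genes are shown as examples of genes that were higher (Sall1, Mef2c) and lower (Cebpb, Klf4) in microglia than in nonclassical monocytes. Each is the stretch of 250 bases before a RefSeq transcript start, in genome build GRCm38.p6, read 5′ to 3′ on the strand of the gene. For genes with several starts, the one nearest to the annotated 5′ end of the gene was used. They are the regions of Sall1 (chr8:89044163-89044412, minus strand), Mef2c (chr13:83503784-83504033, plus strand), Cebpb (chr2:167688665-167688914, plus strand) and Klf4 (chr4:55532476-55532725, minus strand). Capitals mark a match to the E-box CACGTG that BHLHE40 binds.
Sall1: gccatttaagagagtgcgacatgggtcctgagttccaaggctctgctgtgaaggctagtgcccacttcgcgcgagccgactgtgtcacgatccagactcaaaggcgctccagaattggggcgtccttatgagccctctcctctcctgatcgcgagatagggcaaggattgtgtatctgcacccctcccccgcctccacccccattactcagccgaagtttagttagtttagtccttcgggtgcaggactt
Mef2c: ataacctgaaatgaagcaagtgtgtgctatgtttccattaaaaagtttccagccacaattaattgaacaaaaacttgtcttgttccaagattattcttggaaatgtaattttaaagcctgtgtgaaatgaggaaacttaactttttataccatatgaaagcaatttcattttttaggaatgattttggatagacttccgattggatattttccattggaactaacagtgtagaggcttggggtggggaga
Cebpb: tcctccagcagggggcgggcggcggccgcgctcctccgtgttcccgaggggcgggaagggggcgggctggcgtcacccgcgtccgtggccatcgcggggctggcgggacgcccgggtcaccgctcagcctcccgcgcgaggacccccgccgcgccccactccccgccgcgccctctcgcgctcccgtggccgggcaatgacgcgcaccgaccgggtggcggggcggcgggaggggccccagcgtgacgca
Klf4: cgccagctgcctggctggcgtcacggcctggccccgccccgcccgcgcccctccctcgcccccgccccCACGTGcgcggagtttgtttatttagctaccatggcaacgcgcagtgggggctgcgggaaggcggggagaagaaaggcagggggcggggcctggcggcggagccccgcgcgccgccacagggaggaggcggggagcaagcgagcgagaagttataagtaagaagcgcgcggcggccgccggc
GC content was 56.4% for Sall1, 33.6% for Mef2c, 81.6% for Cebpb and 74.0% for Klf4, with a median of 52.4% over 32851 such regions of mouse genes. Sall1 and Mef2c have 3 regions each, of which 1 is shown. Base content of the other members is not given, and a link between base content and direction was not tested. The regions held 13, 1, 41 and 32 CpG dinucleotides, with a median of 6. The letters of 5 short motifs were searched on both strands in the 15 regions of the 7 members that have one in the RefSeq table, which holds none for Spi1 or Bhlhe40. The PU.1 motif GAGGAAG was in regions of Mef2c and Zeb2 (4 of the 15 regions) and in 10.6% of all regions. The E-box CACGTG was in that of Klf4 alone and in 6.02% of all regions, and CAGGTG (ZEB2) was in 1 region of Irf8 and in 17.2%. TTGCGCA (C/EBP) and GGGTGTG (KLF4) were in none of the 15, and in 1.69% and 6.93% of all regions. No motif of the 5 contains another, and a match is a string of letters, not a binding site.

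Sall1 (chr8:89027235-89044162, minus strand, GRCm38) encodes a zinc finger factor needed to keep microglia from taking on other macrophage states. Its level in microglia was 423 CPM in the vehicle library and 285 and 278 CPM in the niacin libraries. In the monocyte/macrophage class it was 2.44, 0 and 0 CPM, and in neutrophils 0, 9.99 and 6.19 CPM, each of the last 2 being a single UMI. Sall1 was thus high in all 3 microglia sums and near 0 in these other classes, with no overlap. Cells that met no class rule had 31.7, 66.5 and 51.9 CPM. Over the 3 libraries, microglia held 2379 Sall1 UMIs and the monocyte/macrophage class 2, a ratio of 188 in CPM with a 95% counting interval of 52.1 to 1557. Against nonclassical monocytes, where no Sall1 UMI was counted, microglia were at least 46.7-fold higher, taking 3 UMIs over the 3 libraries as the limit of a count of 0. T cells and NK cells, which should lack Sall1, had 3.48 to 4.77 CPM. Counting intervals and limits cover counting error only.

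Mef2c (chr13:83504034-83667080, plus strand), a MADS-box factor known to restrain microglial inflammatory responses, was at 1097, 1327 and 1230 CPM in microglia (vehicle, niacin 1, niacin 2). It was at 153, 399 and 302 CPM in the monocyte/macrophage class and at 454, 383 and 293 CPM in nonclassical monocytes. Neutrophils had 51.0, 0 and 12.4 CPM. Microglia were above the blood-derived classes in all 3 libraries without overlap, and monocytes were above neutrophils. Mef2c was not limited to myeloid cells, since B cells, of which 8, 25 and 44 were present, had 914, 826 and 1215 CPM.

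**Figure D1:**
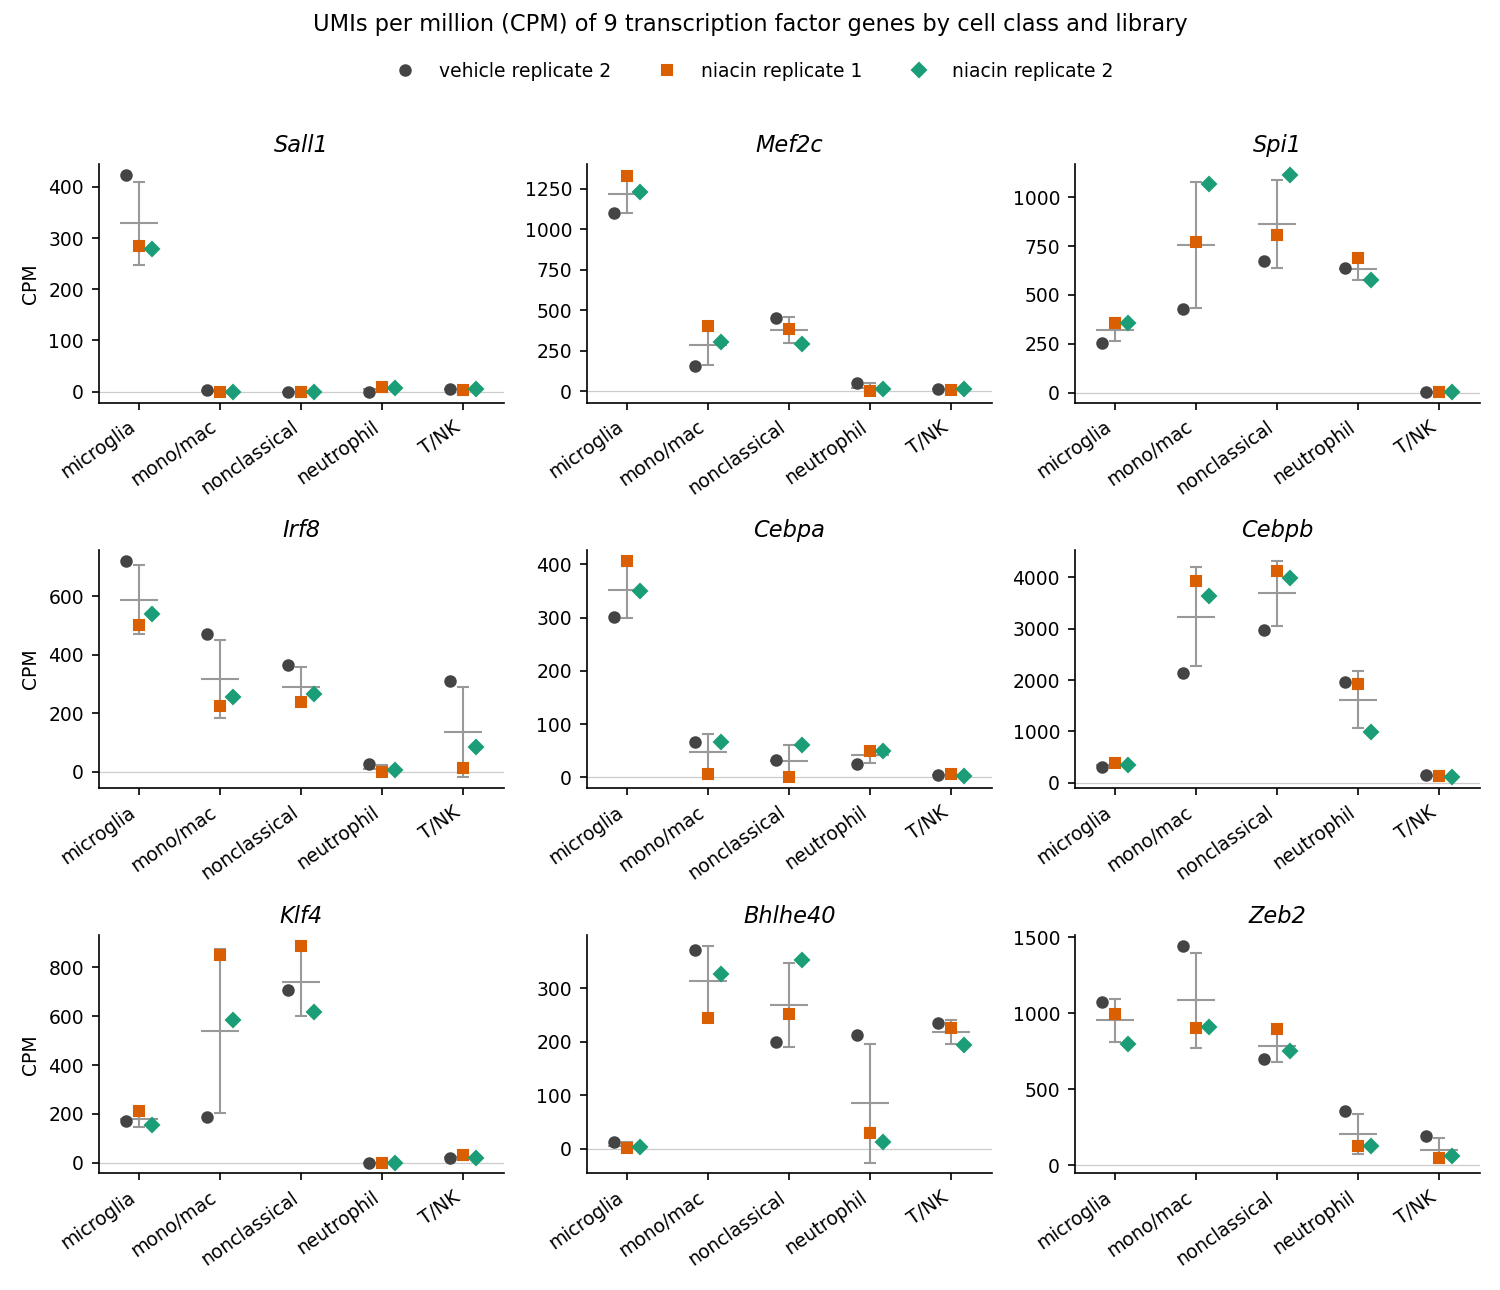
CPM of each gene (y axis, 1 scale per gene) in 5 cell classes (x axis; nonclassical monocytes are part of the mono/mac class), with 1 point per library and the mean with SD of the 3 libraries in gray. Sall1, Mef2c and Cebpa were highest in microglia in every library, Cebpb, Spi1 and Bhlhe40 were higher in the monocyte/macrophage class than in microglia, and Klf4 was at 0 in all 3 neutrophil sums.

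Spi1 (chr2:91082390-91115756, plus strand) encodes PU.1, the ETS-domain factor required for all macrophages. Microglia had 256, 355 and 356 CPM, the monocyte/macrophage class 427, 773 and 1070 CPM, and neutrophils 638, 689 and 576 CPM. Each microglia sum was below each sum of the joined monocyte/macrophage class and of neutrophils. T and NK cells had 3.18 to 4.51 CPM. Irf8 (chr8:120736358-120756694, plus strand), an interferon regulatory factor that pairs with PU.1 and turns progenitors from granulocytes toward monocytes, ran the other way. It was at 722, 501 and 541 CPM in microglia, 470, 225 and 256 CPM in the monocyte/macrophage class, and 25.5, 0 and 6.19 CPM in neutrophils, which held 4 Irf8 UMIs in all. Its order was microglia, then the joined monocyte/macrophage class, then neutrophils in each library. Classical monocytes of the vehicle library had 521 CPM, below vehicle microglia but within the range of microglia over the 3 libraries. Irf8 was also present in lymphoid classes, at 310, 13.9 and 82.7 CPM in T and NK cells and at 1091, 258 and 399 CPM in B cells.

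The C/EBP genes split. Cebpa (chr7:35119293-35121928, plus strand), whose product is needed to form granulocyte and monocyte progenitors, was at 301, 407 and 350 CPM in microglia. It was at 67.1, 6.44 and 67.2 CPM in the monocyte/macrophage class, 33.2, 0 and 60.5 CPM in nonclassical monocytes, and 25.5, 49.9 and 49.5 CPM in neutrophils. Cebpb (chr2:167688915-167690418, plus strand), whose product acts in emergency granulopoiesis, inflammatory macrophages and the survival of nonclassical monocytes, was at 304, 387 and 347 CPM in microglia. The monocyte/macrophage class had 2133, 3927 and 3635 CPM, nonclassical monocytes 2966, 4126 and 3986 CPM, and neutrophils 1955, 1918 and 984 CPM. Microglia thus held both genes, at 301 CPM or more of Cebpa and 304 CPM or more of Cebpb, whereas Cebpa did not exceed 67.2 CPM in the joined class, nonclassical monocytes or neutrophils. Parts of the joined class in the vehicle library ran from 23.2 CPM in Arg1 macrophages to 80.8 CPM in classical monocytes. Cells of that class that met no subclass rule had 146 CPM.

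Klf4 (chr4:55527143-55532466, minus strand), a zinc finger factor needed to form monocytes, was at 170, 213 and 152 CPM in microglia and at 708, 888 and 619 CPM in nonclassical monocytes. The joined monocyte/macrophage class had 185, 850 and 583 CPM, so its vehicle value lay within the range of microglia. No Klf4 UMI was counted in any of the 109 neutrophils. Bhlhe40 (chr6:108660629-108666925, plus strand), a basic helix-loop-helix repressor linked to cytokine output and proliferation of macrophages, was at 13.6, 1.79 and 3.15 CPM in microglia, from 38 UMIs in all. It was at 372, 245 and 327 CPM in the monocyte/macrophage class and at 236, 226 and 194 CPM in T and NK cells. In neutrophils it was at 213, 30.0 and 12.4 CPM, and the vehicle value stood apart from those of both niacin libraries. Zeb2 (chr2:44983632-45117395, minus strand), a zinc finger repressor that maintains the identity of tissue macrophages, was at 1071, 993 and 796 CPM in microglia and at 1443, 901 and 911 CPM in the monocyte/macrophage class, and these overlapped. Neutrophils had 357, 130 and 130 CPM. Zeb2os lies within Zeb2 on the opposite strand (chr2:45110707-45114087), and how strand was used in counting is not given in the sources used here.

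To test the differences between classes, UMI sums per class and library were fitted with edgeR's quasi-likelihood test, with the library as a block and Benjamini-Hochberg adjustment over all genes tested. Between microglia and the monocyte/macrophage class, 43.8% of 4907 genes passed an adjusted p of 0.05 (21.6% higher and 22.2% lower in microglia), and so did 8 of the 9 genes, 4 in each direction. Sall1 (adjusted p = 2.56e-06), Cebpa (log2 fold change 2.76, SE 0.49, adjusted p = 0.000878), Mef2c (2.21, SE 0.41, adjusted p = 0.00129) and Irf8 (0.98, SE 0.30, adjusted p = 0.0220) were higher in microglia. Bhlhe40 (-5.99, SE 0.49, adjusted p = 3.75e-06), Cebpb (-3.16, SE 0.28, adjusted p = 6.40e-06), Klf4 (-1.33, SE 0.38, adjusted p = 0.0185) and Spi1 (-1.12, SE 0.26, adjusted p = 0.00435) were lower. Zeb2 did not pass (-0.12, SE 0.27, adjusted p = 0.755), and its sign turned under several settings. Irf8 and Klf4 lost their calls when barcodes found in several libraries were kept (adjusted p = 0.0627 and 0.0722), when only the deepest copy of each was kept (0.119 and 0.117), when the first niacin library was left out (0.270 and 0.101) and when the second was left out (0.224 and 0.105). Spi1 lost its call without the second niacin library (adjusted p = 0.0692), which left 5 of the 9 called. Cebpa moved to 2.10 without the first niacin library and Bhlhe40 to -6.63 without the vehicle library.

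With nonclassical monocytes in place of the joined class, a comparison added after the class composition was seen, 55.2% of 3701 genes passed (29.2% higher and 26.0% lower in microglia) and 8 of the 9 genes did, in the same directions. Irf8 (log2 fold change 1.23, SE 0.24, adjusted p = 0.000723) and Klf4 (-1.84, SE 0.22, adjusted p = 2.20e-05) then passed under each alternative run, leaving out each library included. Cebpb was lower in microglia by 3.21 on the log2 scale (SE 0.24, adjusted p = 1.33e-07) and Cebpa was higher (3.65, SE 0.47, adjusted p = 1.96e-05), at 2.96 without the first niacin library and 5.08 without the second. Bhlhe40 (-5.66, SE 0.54, adjusted p = 1.11e-06) moved to -6.68 without the vehicle library and to -4.92 without the second niacin library. Zeb2 again did not pass (0.47, SE 0.25, adjusted p = 0.133).

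**Figure D2:**
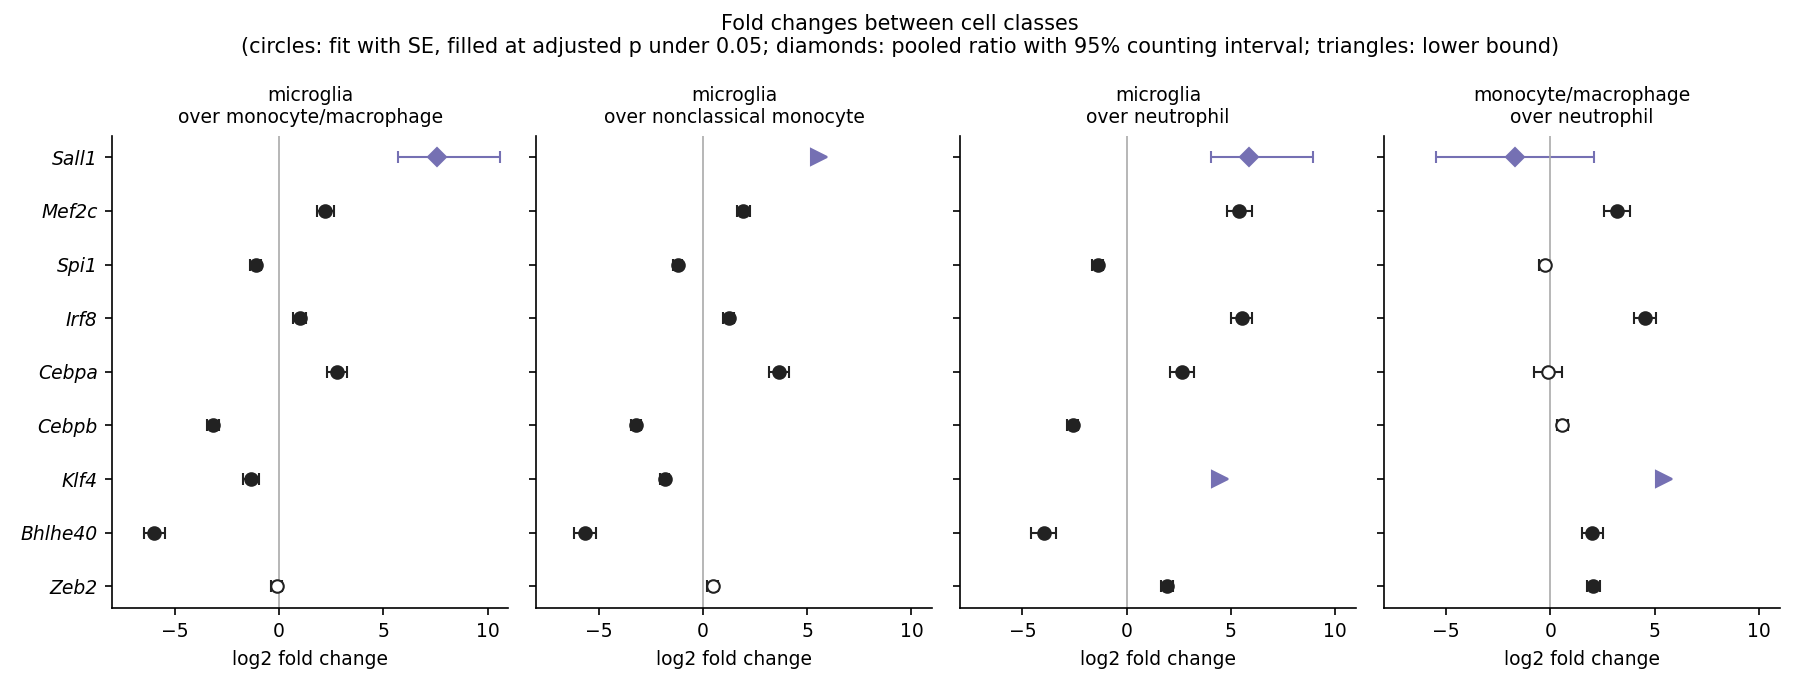
Log2 fold change (x axis) of each gene (y axis) for 4 pairs of classes, from the edgeR fit with SE (circles, filled at an adjusted p under 0.05). Where the second class held 3 UMIs or fewer, the pooled CPM ratio with its 95% counting interval is drawn (diamonds), and where it held none, the lower bound (triangles). Zeb2 lay near 0 against both monocyte classes, and Bhlhe40 and Cebpb lay furthest below 0 where microglia were the first class.

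Between microglia and neutrophils, 52.7% of 4907 genes passed (30.0% higher and 22.7% lower in microglia), and all 9 genes did, 6 higher and 3 lower, with the median log2 fold change of all genes at 0.28. Mef2c (5.41, SE 0.58, adjusted p = 2.20e-05), Irf8 (5.51, SE 0.50, adjusted p = 6.22e-06), Cebpa (2.65, SE 0.57, adjusted p = 0.00244) and Zeb2 (1.95, SE 0.30, adjusted p = 0.000285) were higher in microglia. So were Sall1, by a pooled ratio of 58.9 (counting interval 16.3 to 487) over 2 neutrophil UMIs, and Klf4, at least 22.0-fold. Spi1 (-1.39, SE 0.26, adjusted p = 0.00110), Cebpb (-2.59, SE 0.27, adjusted p = 1.92e-05) and Bhlhe40 (-3.98, SE 0.60, adjusted p = 0.000239) were lower. Bhlhe40 rested on 25, 3 and 2 neutrophil UMIs (vehicle, niacin 1, niacin 2). Its levels overlapped between libraries, with 13.6 CPM in vehicle microglia and 12.4 CPM in neutrophils of the second niacin library. These 9 calls held under each alternative run, with Mef2c at 6.77 and Irf8 at 6.47 without the vehicle library.

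The monocyte/macrophage class and neutrophils differed in fewer genes, 29.0% of 4907, and in 5 of the 9, all higher in monocytes and macrophages (15.5% of all genes were). They were Irf8 (4.54, SE 0.52, adjusted p = 0.000174), Mef2c (3.20, SE 0.61, adjusted p = 0.00284), Zeb2 (2.06, SE 0.30, adjusted p = 0.000620), Bhlhe40 (2.00, SE 0.50, adjusted p = 0.0127) and Klf4, at least 44.1-fold. Spi1 (-0.27, SE 0.26, adjusted p = 0.461), Cebpa (-0.11, SE 0.65, adjusted p = 0.917), Cebpb (0.57, SE 0.26, adjusted p = 0.121) and Sall1, with 2 UMIs in each class, did not pass. The call of Bhlhe40 was lost without the second niacin library (1.54, adjusted p = 0.101) and its value was 3.18 without the vehicle library. Mef2c stood at 4.75 without the vehicle library and 2.56 without the first niacin library, and Irf8 at 5.23 without the vehicle library. For nonclassical monocytes against neutrophils, where 38.7% of 3701 genes passed (18.8% higher), the same 5 genes and Cebpb (0.67, SE 0.23, adjusted p = 0.0331) were higher. There the calls of Cebpb (adjusted p = 0.196) and Bhlhe40 (0.165) were lost without the first niacin library, as was that of Zeb2 (0.0529), which left 3 called. Without the second, those of Cebpb (0.231) and Bhlhe40 (0.365) were lost. Bhlhe40 also lost its call with at least 500 genes per cell, at most 10% mitochondrial UMIs or at least 2000 UMIs per cell, Cebpb with 75% of subclass marker UMIs, and both without the 5% deepest cells. Without the vehicle library Mef2c was at 4.69, Irf8 at 5.28 and Bhlhe40 at 3.25. The 17 monocyte/macrophage markers summed to 1049 to 1287 CPM in neutrophils, with 8 to 11 of them at 0. Their part in the neutrophil values was not tested. Scaling by library totals alone moved the median log2 fold change of all genes from 0.19 to 0.64 in the comparison of the joined class with neutrophils, and the sign of Spi1 turned with it (0.21).

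Relatives and partners of these factors were read from lists of genes. Of 29 relatives from the same families, 21 were tested between microglia and the monocyte/macrophage class, with 7 higher, 4 lower and a median log2 fold change of 0.49, against 0.04 for all genes. Of all genes, 21.6% were higher and 22.2% lower in microglia. Sall3 had 193, 170 and 148 CPM in microglia and no UMI in the monocyte/macrophage class, at least 66.4-fold apart. Bhlhe41, the closest relative of Bhlhe40, had 229, 237 and 227 CPM in microglia and 2 UMIs in the monocyte/macrophage class, a pooled ratio of 139.6 (counting interval 38.6 to 1153). The 2 relatives were thus distributed in opposite ways between these classes, Bhlhe41 in microglia and Bhlhe40 in the monocyte/macrophage class. Irf7, an inducer of type I interferon, was lower in microglia (-3.92, SE 0.36, adjusted p = 9.13e-06), as was Klf9 (-3.62, SE 0.60, adjusted p = 0.000587). Irf7 also differed between libraries, with 644 CPM in the vehicle monocyte/macrophage class against 38.6 and 101 CPM in the niacin libraries.

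Of 27 other myeloid factors, 17 were tested, with 4 higher and 7 lower in microglia and a median of -0.68. Of all genes, 21.6% were higher and 22.2% lower. Maf, a bZIP factor of differentiated macrophages, was the highest of the 17 tested (3.50, SE 0.57, adjusted p = 0.000505). Nr4a1, the nuclear receptor needed by nonclassical monocytes, was the lowest of them (-5.64, SE 0.55, adjusted p = 1.22e-05). Pparg, of the same list, was not among the 17. It had 1 UMI in microglia and 68 in the monocyte/macrophage class (0.131 and 56.1 CPM, pooled). Nr4a1 was at 155 CPM in the vehicle monocyte/macrophage class and at 1120 and 814 CPM in the niacin libraries, and at 1096, 1168 and 899 CPM in nonclassical monocytes. Of 9 receptors and SMADs that act upstream, all were tested, with 4 higher and 2 lower in microglia, beside the same shares of all genes. Tgfbr1, a TGF-β receptor (2.46, SE 0.36, adjusted p = 0.000243), and Csf1r, the receptor for CSF1 and IL-34 (1.80, SE 0.33, adjusted p = 0.00111), were higher. Csf2ra (-1.51, SE 0.25, adjusted p = 0.000516) and Csf2rb (-1.04, SE 0.31, adjusted p = 0.0171), the chains of the GM-CSF receptor, were lower.

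Against neutrophils, 5 of the 21 relatives were higher and 8 lower in microglia, 5 and 4 of the 17 other factors, and 3 and 3 of the 9 receptors and SMADs, beside 30.0% and 22.7% of all genes. Csf1r (5.14, SE 0.41, adjusted p = 2.64e-06) was higher. Csf3r, the receptor for G-CSF (-2.86, SE 0.27, adjusted p = 9.29e-06), and the AP-1 gene Fosl2 (-3.22, SE 0.43, adjusted p = 9.91e-05) were lower. Between the monocyte/macrophage class and neutrophils, the counts were 2 and 3, 6 and 1, and 1 and 1, beside 15.5% and 13.5% of all genes. Cebpd, a further C/EBP gene, was lower than in neutrophils (-3.65, SE 0.32, adjusted p = 3.28e-05), while Cebpa and Cebpb did not pass there. Irf5 (2.47, SE 0.54, adjusted p = 0.00629) was higher, as was Irf8.

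Genes that respond to tissue dissociation moved with the same comparison. Of 10 such genes, 8 were tested between microglia and the monocyte/macrophage class. Of these, 6 were higher in microglia and none was lower, beside 21.6% and 22.2% of all genes. Egr1 (5.36, SE 0.33, adjusted p = 1.09e-06) and Jun (3.72, SE 0.46, adjusted p = 7.72e-05) were the highest. The list summed to 15157 to 17178 CPM in microglia and 3354 to 4035 CPM in the monocyte/macrophage class. Against neutrophils, 6 of the 8 were higher and 1 lower in microglia, beside 30.0% and 22.7% of all genes. In the monocyte/macrophage class 1 was higher and 3 lower, beside 15.5% and 13.5%. Their part in the values of the 9 genes was not tested. In nonclassical monocytes the list summed to 3251 to 3575 CPM.

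Detection per cell was compared after each cell was thinned to 2000 UMIs, which left out 112 of 341, 168 of 612 and 288 of 875 microglia. A Sall1 UMI was found in 57.6% of vehicle microglia (95% exact binomial interval 51.0 to 64.1) and in 40.8% (36.2 to 45.5) and 37.3% (33.4 to 41.4) in the niacin libraries. Before thinning it was found in 69.5%, 52.5% and 53.4% of all microglia, those under 2000 UMIs included. In the monocyte/macrophage class it was found in none of 123, 26 and 34 thinned cells, which allows shares of up to 2.44%, 11.5% and 8.82% of cells with a UMI at this depth, and in T and NK cells in 1 of 102, 0 of 42 and 0 of 91. Mef2c was found in 85.2%, 86.3% and 87.2% of microglia and Zeb2 in 75.1%, 74.3% and 72.9%, so both were near-general genes of the class at this depth. Cebpb was found in 43.7%, 47.1% and 46.2% of microglia and in 82.1%, 96.2% and 94.1% of the monocyte/macrophage class. Klf4 was found in 20.1%, 21.8% and 16.5% of microglia, and Bhlhe40 in 1.31%, 0% and 0.341%, the 0 being of 444 cells, which allows up to 0.676% of cells with a UMI. The Bhlhe40 share in T and NK cells was 26.5%, 19.0% and 33.0%. Median UMIs before thinning, over all cells of the class, were 3914, 3245 and 4419 in microglia and 4522, 2155 and 6037 in T and NK cells.

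**Figure D3:**
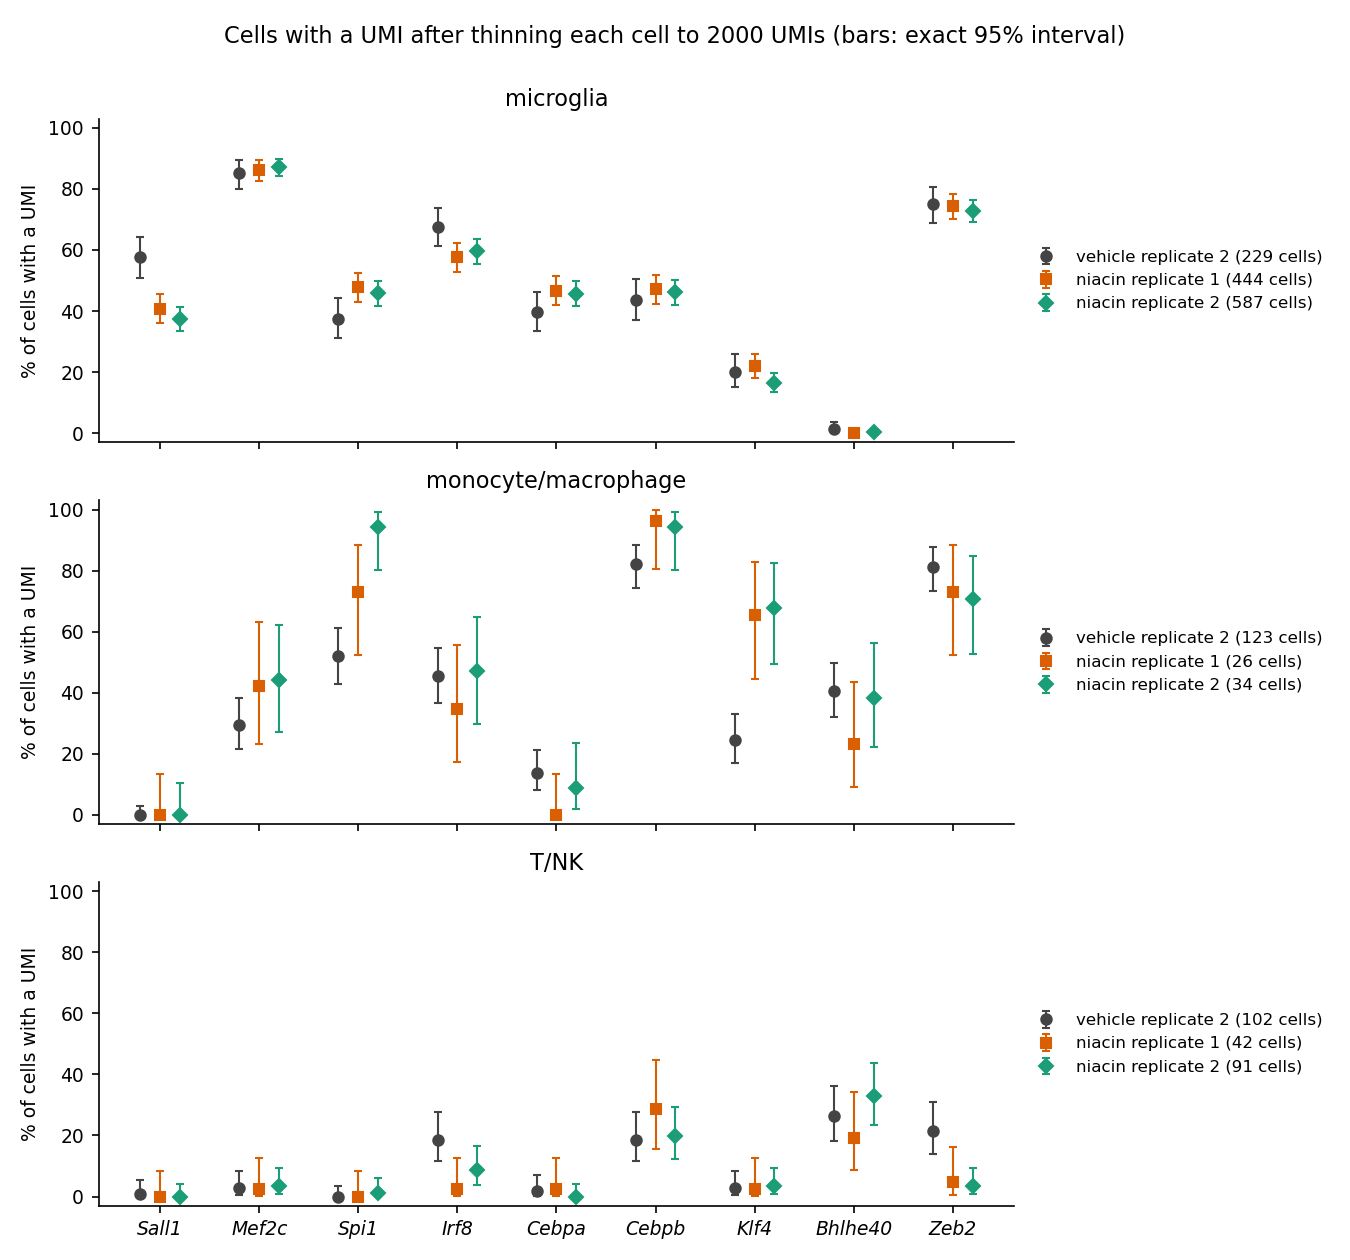
Percent of cells with at least 1 UMI (y axis) of each gene (x axis) after thinning to 2000 UMIs, in microglia, the monocyte/macrophage class and T/NK cells, with 1 point per library and exact 95% binomial intervals. Sall1 was found in 37.3% to 57.6% of microglia and in no cell of the monocyte/macrophage class, and the intervals cover counting error only.

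Within the vehicle library, which alone held enough of each, subclasses of monocytes and macrophages could be set side by side, as values without a test. Classical monocytes (79 cells) had 94.3 CPM of Klf4 and 110 CPM of Mef2c, and nonclassical monocytes (16 cells) had 708 and 454 CPM, ratios of 7.51 (counting interval 5.01 to 11.4) and 4.12 (2.66 to 6.37). Bhlhe40 was at 305 CPM in classical and 199 CPM in nonclassical monocytes (ratio 0.652, 0.375 to 1.07). Zeb2 ran the other way, at 1285 CPM in classical and 697 CPM in nonclassical monocytes (ratio 0.543, 0.412 to 0.705), and was highest in Arg1 macrophages (38 cells) at 2355 CPM, 1.83 times the classical level (1.59 to 2.11). Arg1 macrophages had 255 CPM of Spi1 and 38.6 CPM of Mef2c, below the classical values of 456 and 110 CPM. Cells marked by Cd209a, Clec10a, Flt3, Kmo and Tnip3 (dendritic-like, 25 cells) stood apart in Cebpb, at 303 CPM against 2286 CPM in classical monocytes (ratio 0.133, 0.0862 to 0.195), and in Bhlhe40, at 827 against 305 CPM (2.71, 2.00 to 3.64). For Irf8, classical monocytes had 521 CPM, nonclassical monocytes 365 CPM, Arg1 macrophages 286 CPM and dendritic-like cells 629 CPM. Vehicle microglia had 722 CPM. The niacin libraries held 2 and 4 classical monocytes, 0 and 1 Arg1 macrophages and 1 and 0 dendritic-like cells, so no test between subclasses could be fitted with barcodes found in several libraries left out.

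With all barcodes kept, nonclassical and classical monocytes could be fitted, and 18.5% of 4641 genes passed. Of the 8 members tested, 4 did, with Klf4 (1.65, SE 0.36, adjusted p = 8.03e-05), Mef2c (1.36, SE 0.34, adjusted p = 0.000599) and Bhlhe40 (0.97, SE 0.35, adjusted p = 0.0311) higher and Cebpa (-2.00, SE 0.41, adjusted p = 2.10e-05) lower in nonclassical monocytes. The direction of Bhlhe40 is opposite to the ratio in the vehicle library above. These sums share barcodes, so the 3 libraries are not separate there. With 1 copy of each barcode kept, the deepest, 5.89% of 4261 genes passed and Cebpa was the 1 member called (-2.25, SE 0.35, adjusted p = 0.0180), with Klf4 at 1.44 (adjusted p = 0.121), Mef2c at 1.19 (0.136) and Bhlhe40 at 0.93 (0.26).

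Microglia with activation markers were rare. By the rule of at least 2 of Cst7, Ch25h, Cxcl13, Lpl, Itgax, Axl and Spp1 in the thinned counts, 14, 3 and 6 cells were activated, too few for a fit. With at least 1 marker, 53, 18 and 53 cells could be compared with 176, 426 and 534 others, and 3.84% of 7765 genes passed. Klf4 was lower in the cells with a marker (-0.99, SE 0.20, adjusted p = 0.000125), the 1 of 8 members tested that passed. Sall1 was at -0.49 (SE 0.16, adjusted p = 0.0630), and Spi1, Cebpb, Mef2c, Irf8, Cebpa and Zeb2 lay between -0.19 and 0.25.

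The single vehicle library allows no test of niacin, so library and treatment cannot be told apart and the values are a description. In microglia, none of the members with a mean of at least 20 CPM passed 1.5-fold in both niacin libraries (5.10% of 6614 genes did upward and 8.56% downward). Sall1 came nearest, at -0.57 and -0.60 on the log2 scale (both niacin libraries over vehicle -0.59, 95% counting interval -0.72 to -0.46). Irf8 was lower in both niacin libraries (-0.47, -0.57 to -0.37) and Spi1 was higher in both (0.47, 0.32 to 0.63). Mef2c, Cebpa and Cebpb lay between 0.22 and 0.33, Zeb2 at -0.26 and Klf4 at 0.11, with 1 niacin library on each side of vehicle for Klf4. Bhlhe40, under the limit on CPM, had 22 UMIs in vehicle microglia and 4 and 12 in those of the niacin libraries. Of the 16 Bhlhe40 UMIs in vehicle microglia with at least 2000 UMIs, 9 were in the 14 cells with 2 or more activation markers (92.9 CPM) and 7 in the other 215 (5.12 CPM). Their part in the difference was not tested. Monocyte/macrophage markers summed to 151 CPM in vehicle microglia and to 50.5 and 51.7 CPM in those of the niacin libraries, with 2, 2 and 4 of 17 markers at 0. Their part in the niacin values was not tested.

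**Figure D4:**
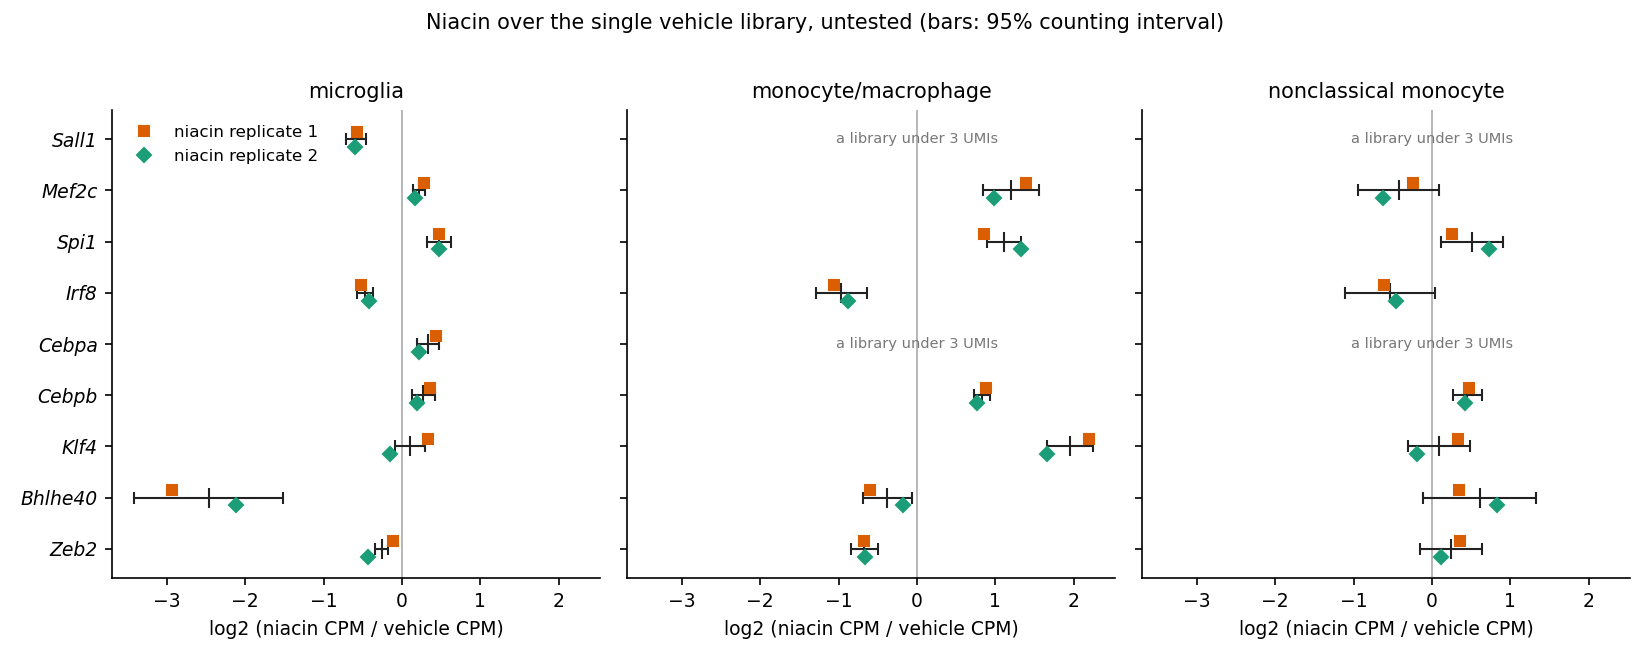
Log2 ratio of niacin over vehicle CPM (x axis) for each gene (y axis) in microglia, the monocyte/macrophage class and nonclassical monocytes, with 1 point per niacin library and the ratio of the niacin mean with its 95% counting interval in black, without a test. Sall1 and Irf8 lay below 0 and Spi1 above 0 in microglia in both niacin libraries, and the shift of Klf4 in the joined class was not seen in nonclassical monocytes.

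In the joined monocyte/macrophage class, Klf4 (1.95), Mef2c (1.20), Spi1 (1.11) and Cebpb (0.83) were past 1.5-fold upward in both niacin libraries on the log2 scale, where 16.2% of 5906 genes were, and Irf8 (-0.96) and Zeb2 (-0.67) downward, where 15.9% were. Within nonclassical monocytes none of the members was past 1.5-fold in both (13.1% and 16.3% of 5753 genes were). There, Klf4 stood at 0.09 (counting interval -0.31 to 0.48), Mef2c at -0.43 (-0.94 to 0.09) and Zeb2 at 0.24 (-0.15 to 0.64). Spi1 (0.51, 0.11 to 0.90) and Cebpb (0.45, 0.26 to 0.64) kept their upward direction in both niacin libraries. Irf8 kept its downward direction in both (-0.53, -1.11 to 0.04). In neutrophils, 36.8% of 4620 genes were past 1.5-fold downward and 7.71% upward. Zeb2 was lower there (-1.46, -2.12 to -0.80), Bhlhe40 had 25, 3 and 2 UMIs and Mef2c 6, 0 and 2, and Cebpa was past the fold upward on 3, 5 and 8 UMIs.

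The genes whose levels were most like those of each member were sought over 15 sums of 5 classes (microglia, monocyte/macrophage, neutrophil, T/NK and choroid plexus cells), by Pearson's r of log2(CPM + 10). For Sall1 they were Cd34 (r = 0.988) and Sall3 (0.987), and for Mef2c P2ry6 (0.981) and Havcr2 (0.971). For Spi1 they were Lrrc25 (0.987) and Nfam1 (0.986), for Irf8 Extl3 (0.954) and Heatr1 (0.95), for Cebpa Anxa3 (0.940) and Rhob (0.921), and for Cebpb Slc16a3 (0.966) and Ptpn6 (0.960). Klf4 was most like Ggta1 (0.961) and Magt1 (0.956), Bhlhe40 Gpr132 (0.930) and Lrrc8c (0.910), and Zeb2 Naip2 (0.976) and Rel (0.969). The 15 points share libraries and depth, and differences between the 5 classes set most of each value.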

How the data were processed

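The authors made the files with Chromium 3′ v3.1 kits, and per the labels' processing notes Cell Ranger 3.1 and mm10 were used. The deposited values are raw UMI counts for each barcode, with totals of 8301228 to 10359526 UMIs per library, and the lowest barcode has 500. Barcodes under 200 genes or above 20% mitochondrial UMIs were dropped, barcodes found in more than 1 library were removed, and no doublet caller was run (dropping the 5% deepest cells of each class was an alternative). Subclasses needed over 50% of subclass marker UMIs and at least 2.

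UMI sums per class (at least 10 cells in every library) and library were tested with edgeR 4.0.16 in R 4.3.3 (TMM, filterByExpr), checked on simulated counts, with DESeq2 1.42.0 as an alternative. Each SE is the absolute log2 fold change over the square root of the F statistic, so it follows from the test. The block pairs classes of 1 library, which come from the same mice. The p-values measure the spread between 3 pools, across treatments. The 9 genes and all lists were chosen with earlier results of these data known. All members are named, and from the other lists the 2 highest and 2 lowest genes that passed at 20 CPM or more, mostly in the comparison of microglia with the monocyte/macrophage class. Some genes that this rule names are not reported here.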

Additional observations from a re-analysis of the deposited data

Results flagged for a closer look

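The 7 differences are listed because of opposite signs, and none of them was tested. For all but Spi1, niacin over vehicle had opposite signs in 2 cell classes, in both niacin libraries. For Spi1, the ratio of 2 classes had opposite signs in the vehicle library and in both niacin libraries. As log2 ratios of niacin over vehicle, the effect in microglia minus that in nonclassical monocytes was 0.65 for Mef2c, -0.50 for Zeb2 and -3.07 for Bhlhe40, the last from 38 microglial UMIs, of which 9 were in 14 vehicle cells with 2 or more activation markers. For Cebpb, the effect in microglia exceeded that in neutrophils by 0.70, and the effect in nonclassical monocytes exceeded that in neutrophils by 0.88. The neutrophil effect of Cebpb was -0.03 in the first niacin library and -0.99 in the second, so the first hardly differed from vehicle. For Zeb2, the effect in nonclassical monocytes exceeded that in neutrophils by 1.70. Spi1 in the monocyte/macrophage class was below neutrophils in the vehicle library and above them in both niacin libraries. The difference was 1.11 on the log2 scale. With barcodes found in several libraries left out, the nonclassical shares of that class were 8.38%, 91.2% and 82.9%. The part of these shares in the difference was not tested. All of these rest on 1 vehicle library.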

How the results depend on the processing

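Of the class comparisons, the 9 calls of microglia against neutrophils and the 8 calls against nonclassical monocytes held under each alternative that was run. Without the replicate block, 7, 9 and 4 members were called in the 3 main comparisons and 4 between nonclassical monocytes and neutrophils, beside 2069, 2528 and 1351 of 4907 genes and 1399 of 3701, so that Irf8 against the joined class (adjusted p = 0.0851) and Bhlhe40 between the joined class and neutrophils (0.0942) lost their calls. Leaving out 1 library gave 5 to 8 members called between microglia and the joined class. Genes called were 2478 of 4442 without the vehicle library, 1737 of 7512 without the first niacin library and 1712 of 7303 without the second. Between the joined class and neutrophils 4 to 6 members were called, beside 1698 of 4442, 864 of 7512 and 700 of 7303 genes in that order. Between nonclassical monocytes and neutrophils 3 to 6 members were called, beside 1589 of 4264, 925 of 4423 and 919 of 3364 genes.

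With all barcodes kept, 4559, 4760 and 3164 of 8634 genes were called in the 3 main comparisons. With the deepest copy only, 3952, 4333 and 2789 of 8277 were called. For nonclassical monocytes against microglia and neutrophils the counts were 3648 and 2650 of 6958, or 3509 and 2524 of 6869. Without a filter on low counts, 3296 of 16775 genes were called between microglia and the joined class and 3110 of 16511 against nonclassical monocytes. With only the pair of classes fitted, 895 of 2723 were called between the joined class and neutrophils. Between microglia and nonclassical monocytes 3505 of 8516 were. The main fits tested 4907 and 3701 genes, so these counts are not on 1 scale. With library totals, the calls against neutrophils were 1944 higher and 777 lower in microglia (main 1471 and 1115), 1176 and 374 in the joined class (main 762 and 663) and 1120 and 384 in nonclassical monocytes (main 694 and 740).

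Values that turned in sign were all of members not called. Zeb2 between microglia and the joined class was at 0.066 with all barcodes, 0.075 with the deepest copy, 0.015 with at most 10% mitochondrial UMIs, 0.47 with nonclassical monocytes, and ran from -0.44 to 0.11 with 1 library left out. Cebpa between the joined class and neutrophils was at 1.08 with all barcodes (adjusted p = 0.0399, a call), 1.02 with the deepest copy, 0.36 with library totals, 0.044 without a filter on counts, and ran from -0.95 to 0.46 with 1 library left out (0.46 and 0.17 without the first and the second niacin library). Spi1 was at 0.21 between the joined class and neutrophils with library totals, and between nonclassical monocytes and neutrophils at 0.026 with 90% of marker UMIs and 0.48 with library totals. Cebpb between the joined class and neutrophils was called under 5 alternatives, among them all barcodes (adjusted p = 0.0197) and without the vehicle library (0.0108). The cause was not tested. With a single niacin library, the count of members past 1.5-fold in microglia ran from 0 to 1 (Sall1, without the first niacin library). Thinning to 1000 or 4000 UMIs moved the Sall1 share in microglia, as a mean of 3 libraries, to 25.9% and 69.9%.

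Niacin and vehicle could not be compared in pairs, because niacin and vehicle mice share no pool. Tests of Cd209a dendritic-like cells, and of activated microglia by the rule of 2 markers, could not be fitted, with under 10 cells in a niacin library. Low depth limits Sall1 outside microglia and Bhlhe40 within them. The comparisons of nonclassical monocytes with microglia and with neutrophils were chosen after seeing the data.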
